A study of Mus musculus with 4 samples.

Results

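The 9 genes Vwf, F5, F8, F3, Thbd, Procr, Tfpi, Plat and Anxa2, which encode coagulation and fibrinolysis proteins of the vessel wall, were read from single-cell RNA counts of mouse brain microvessels. They were taken by symbol, and all 9 were found among the 32286 genes of the counts. The study compared Angpt2-WT (Angpt2+/+) with Angpt2-KO (Angpt2-/-) littermates, in which the gene of the vascular ligand angiopoietin-2 had been deleted in all cells from a floxed allele with Pgk-Cre and backcrossed to C57BL6/J. There were 2 mice per genotype, all 3 months old, and replicate 1 was female and replicate 2 male in both genotypes. Vessel fragments of the cerebrum were pulled down with beads against PECAM1 and dissociated, and each mouse gave 1 library of 3′ transcript tags counted by unique molecular identifiers (UMIs). Since the beads select endothelium, pericytes and smooth muscle cells were present as cells attached to it.

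Blood clots when tissue factor (F3) meets factor VII and thrombin is made, with factors VIII (F8) and V (F5) as cofactors of the proteases that amplify the reaction. Vwf, which endothelium stores in Weibel-Palade bodies, carries factor VIII and tethers platelets. The endothelium holds clotting back with tissue factor pathway inhibitor (Tfpi) and with thrombomodulin (Thbd) and the endothelial protein C receptor (Procr), which together let thrombin activate protein C, the protease that destroys activated factors V and VIII. Fibrin is removed by plasmin, which tissue plasminogen activator (Plat) makes from plasminogen, and annexin A2 (Anxa2) together with S100a10 holds both on the cell surface.

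All members are protein-coding in the GENCODE M21 annotation of the GRCm38 build. F5 spans positions 164151838 to 164220277 of chromosome 1. Vwf spans 125546774 to 125686679 of chromosome 6 and F8 spans 75172715 to 75382615 of chromosome X. Thbd (148404466 to 148408188), Procr (155751117 to 155755471) and Tfpi (84432855 to 84476775) are on chromosome 2. F3 is at 121723537 to 121735048 of chromosome 3, Plat at 22757727 to 22782844 of chromosome 8 and Anxa2 at 69453620 to 69491795 of chromosome 9.

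RefSeq promoter windows (build GRCm38.p6, 250 bases before to 50 after the start) matched 6 of the 9 members by symbol. Shown 5′ to 3′ on the strand of the gene are those of F5, the member with the largest called difference between genotypes, and of Procr and Anxa2, which were both higher in Apln-positive endothelium. Capitals mark matches on either strand to 6 short motifs, and matches that touch run together. KLF factors were searched as CACCC. SP factors were searched as GGGCGG. The core of the hypoxia response element was searched as ACGTG. ETS factors were searched as CCGGAAG. AP-1 was searched as TGANTCA. The TATA box was searched as TATAAA.
F5, chr1:164151585-164151884: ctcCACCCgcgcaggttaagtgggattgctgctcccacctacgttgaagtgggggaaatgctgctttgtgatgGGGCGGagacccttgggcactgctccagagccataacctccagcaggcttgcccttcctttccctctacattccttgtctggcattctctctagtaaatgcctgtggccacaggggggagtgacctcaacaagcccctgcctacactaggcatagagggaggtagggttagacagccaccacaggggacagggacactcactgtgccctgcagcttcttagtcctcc
Procr, chr2:155750967-155751266: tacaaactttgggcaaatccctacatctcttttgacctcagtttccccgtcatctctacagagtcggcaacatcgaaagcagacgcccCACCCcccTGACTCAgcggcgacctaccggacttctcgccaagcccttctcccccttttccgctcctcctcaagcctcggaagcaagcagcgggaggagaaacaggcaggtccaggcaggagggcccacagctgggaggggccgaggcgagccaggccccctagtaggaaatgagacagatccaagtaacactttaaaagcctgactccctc
Anxa2, chr9:69453433-69453732: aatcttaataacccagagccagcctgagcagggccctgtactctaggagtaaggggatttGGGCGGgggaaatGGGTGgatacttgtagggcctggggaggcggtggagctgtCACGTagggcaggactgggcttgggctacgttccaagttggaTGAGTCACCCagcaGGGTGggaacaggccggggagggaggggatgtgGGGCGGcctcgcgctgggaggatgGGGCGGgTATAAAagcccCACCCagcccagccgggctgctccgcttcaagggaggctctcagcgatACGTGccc
The F5 window held 1 KLF match and 1 SP match. The Procr window held 1 KLF match and 1 AP-1 match. The Anxa2 window held 4 KLF matches, 3 SP matches, 2 hypoxia core matches, 1 AP-1 match and 1 TATA box match. Of 32851 promoter windows of the same length, 57.5% held a KLF match, 35.7% an SP match, 19.6% the hypoxia core, 8.86% an ETS match, 7.81% an AP-1 match and 13.6% a TATA box. A match describes letters and not a bound site.

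Of 19809 barcodes, 17999 had over 500 genes and under 10% mitochondrial UMIs, with 31753395 to 42903731 UMIs per mouse and a median of 4088.5 to 7351.5 UMIs per cell. Endothelial cells (ECs) made up 14111 of them, and 33 cell barcodes were shared between libraries. Clusters were named from marker genes and are called "-like", and where values depart from those of the study, the rebuilt names are a possible source. Among ECs with no Apln UMI there were 2235 arterial-like, 9035 capillary-like and 552 venous-like cells, beside 594 pericyte-like and 752 smooth muscle-like cells. The arterial gene Bmx averaged 237 ± 30.2 counts per 1000000 UMIs of the cell group (CPM, SD, n = 4 mice) in arterial-like and 15.3 ± 6.73 in venous-like ECs, and the venous gene Ackr1 averaged 111 ± 28.5 CPM in venous-like ECs. Of the capillary genes, Mfsd2a did not set capillary-like (252 ± 54.8 CPM) apart from arterial-like ECs (270 ± 120 CPM), while Slc16a1 averaged 637 ± 106 against 182 ± 26.6 CPM. The 10 capillary markers summed to 9430 to 12100 CPM in capillary-like and 8340 to 12100 CPM in arterial-like ECs of the 4 mice. Kcnj8 marked the pericyte-like cells (319 ± 61.8 CPM) and Acta2 the smooth muscle-like cells (7840 ± 1080 CPM). Angpt2 tags do not check the genotypes, since the deleted exon lies outside the 3′ end that is read: Angpt2 stood at 70.3 and 77.2 CPM in Apln-positive ECs of Angpt2-WT and at 121 and 113 CPM in those of Angpt2-KO mice.

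The members had different patterns along the vessel tree, which the plot of CPM by mouse and cell group shows. Classes were compared on UMIs summed per mouse with the edgeR quasi-likelihood test and Benjamini-Hochberg adjustment over all genes tested, and a gene is called where the adjusted p was under 0.05. Against capillary-like ECs, 4 of 8 tested members were called in arterial-like ECs, where 27.1% of all genes tested were, and 6 of 8 in venous-like ECs, where 30.8% were. Between venous-like and arterial-like ECs 32.2% of all genes tested were called. In these comparisons of vessel types, and for a cluster of angiogenic ECs described below, only genes that took no part in the EC clustering were tested. The members had been left out of the clustering, so these shares lack the variable genes that took part in it. F3 had too few UMIs for any test. Venous-like ECs had more UMIs per cell than capillary-like ECs. Their medians were 18707 and 17204 in Angpt2-WT and 14936.5 and 7539 in Angpt2-KO mice. Those of capillary-like ECs were 4806 and 3921 in Angpt2-WT and 5047 and 3185 in Angpt2-KO mice. Fewer members were called in venous-like ECs without the cells of highest UMI count, as given below. The part of depth in these calls was not tested.

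**Figure D1:**
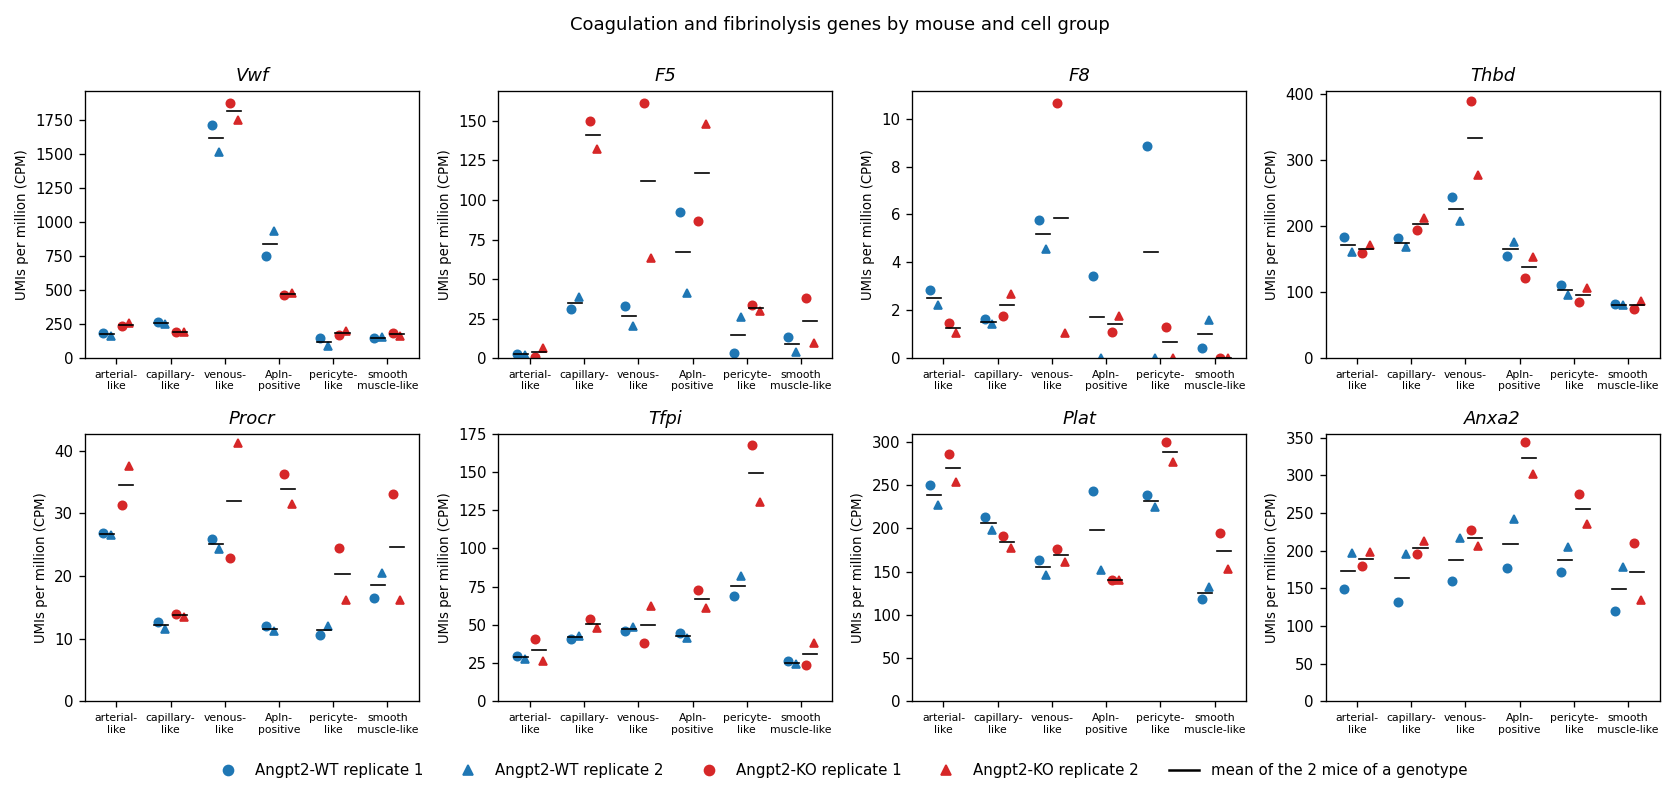
Level of 8 members (CPM, linear axes from 0) in 6 cell groups, 1 point per mouse (blue Angpt2-WT, red Angpt2-KO; circles replicate 1, triangles replicate 2) with a line at the mean of the 2 mice of a genotype. Vwf is highest in venous-like ECs in all 4 mice, and F5 is lowest in arterial-like ECs and higher in Angpt2-KO than in Angpt2-WT capillary-like and venous-like ECs.

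Vwf was highest in venous-like ECs. It stood at 1715 and 1512 CPM there in Angpt2-WT replicates 1 and 2 and at 1875 and 1751 CPM in Angpt2-KO replicates 1 and 2, against 163 to 264 CPM in the arterial-like and capillary-like ECs of the 4 mice. The ranges did not overlap, with a log2 difference of 2.89 ± 0.0964 (SE) from capillary-like ECs (edgeR quasi-likelihood test, adjusted p = 8.1e-24). Arterial-like and capillary-like ECs did not differ beyond their spread in Vwf (-0.15 ± 0.097, edgeR adjusted p = 0.29). Thbd was spread more evenly, at 159 to 183 CPM in arterial-like, 168 to 212 in capillary-like and 208 to 389 in venous-like ECs. The venous-like level of Thbd was called higher than the capillary-like one (0.48 ± 0.0826, edgeR adjusted p = 1.9e-05), but not at a finer clustering (resolution 0.6, 0.12, edgeR adjusted p = 0.138).

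F5 was lowest in arterial-like ECs. They held 16, 13, 2 and 18 F5 UMIs in Angpt2-WT replicates 1 and 2 and Angpt2-KO replicates 1 and 2, a level below the capillary-like one by a log2 difference of -4.49 ± 0.205 (edgeR adjusted p = 1.25e-19) and below the venous-like one (venous over arterial 4.002 ± 0.269, edgeR adjusted p = 6.81e-15). Venous-like ECs were called lower than capillary-like ECs in F5 (-0.49 ± 0.137, edgeR adjusted p = 0.00563). That order was not stable: it was lost with DESeq2 (-0.40, adjusted p = 0.644), without Angpt2-WT replicate 2 (-0.295, edgeR adjusted p = 0.196) and without Angpt2-KO replicate 2 (-0.33, edgeR adjusted p = 0.0687), and it turned round at resolution 0.6 (1.63, edgeR adjusted p = 6.65e-15), where a further cluster of 2735 cells took the venous name.

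F8 was sparse, with 66, 73, 45 and 44 UMIs in all ECs of the 4 mice in the same order. It was called higher in venous-like than in capillary-like ECs (1.53 ± 0.337, edgeR adjusted p = 5.13e-04), although the mice overlapped: venous-like ECs held 5.78, 4.58, 10.6 and 1.06 CPM and capillary-like ECs 1.65, 1.41, 1.77 and 2.67 CPM. The F8 call was lost at resolution 0.6 (0.44, edgeR adjusted p = 0.205). F3, which starts coagulation, gave 7, 10, 3 and 1 UMIs in all ECs. It had 0 UMIs in venous-like ECs of each mouse, which allows up to 4.56 CPM in the shallowest of these sums.

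Procr was higher in arterial-like and venous-like than in capillary-like ECs. It ranged from 26.5 to 37.6 CPM in arterial-like, from 11.6 to 13.97 in capillary-like and from 22.8 to 41.2 in venous-like ECs, and the capillary-like values did not overlap with the others. The log2 differences from capillary-like ECs were 1.22 ± 0.1 for arterial-like (edgeR adjusted p = 2.15e-12) and 1.13 ± 0.122 for venous-like ECs (edgeR adjusted p = 2.08e-09). Arterial-like and venous-like ECs did not differ beyond their spread in Procr (-0.10 ± 0.121, edgeR adjusted p = 0.602). Tfpi was lower in arterial-like ECs, at 26.4 to 40.7 CPM against 40.9 to 53.6 in capillary-like ECs (-0.58 ± 0.0861, edgeR adjusted p = 1.44e-06).

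Of the fibrinolysis genes, Plat declined from arterial-like (227 to 287 CPM) over capillary-like (178 to 214) to venous-like ECs (146 to 176). Its log2 differences from capillary-like ECs were 0.37 ± 0.0605 (arterial-like, edgeR adjusted p = 9.28e-06) and -0.30 ± 0.0697 (venous-like, edgeR adjusted p = 8.4e-04), of which the first was lost at resolution 0.6 (-0.077, edgeR adjusted p = 0.313) and with no gene left out of the clustering (0.15, edgeR adjusted p = 0.0534). Anxa2 was not called between these classes, with 131 to 228 CPM over the 12 sums of arterial-like, capillary-like and venous-like ECs.

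Loss of Angpt2 is the question of the design. In capillary-like ECs, F5 was the 1 of 8 tested members called between genotypes, where 2.6% of all genes tested were. F5 stood at 31.2 and 38.5 CPM in Angpt2-WT replicates 1 and 2 and at 150 and 132 CPM in Angpt2-KO replicates 1 and 2. The genotypes did not overlap, with a log2 fold change of 1.99 ± 0.114 (edgeR quasi-likelihood test, adjusted p = 2.19e-07), and the call held in every alternative that was run. An exact permutation test of 2 against 2 mice could not give a p below 0.333. The edgeR p-values rest on 2 mice per genotype, and the spread of a gene is partly borrowed from other genes.

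F5 was also the 1 of 8 tested members called in venous-like ECs, where 0.276% of all genes tested were. It had 33.2 and 20.4 CPM in Angpt2-WT and 161 and 63.4 CPM in Angpt2-KO mice (2.01 ± 0.303, edgeR adjusted p = 8.88e-04), and the latter came from 34 and 87 cells. This call was lost with DESeq2 (2.01, adjusted p = 0.75). In arterial-like ECs F5 lay at 2.52 and 2.22 CPM in Angpt2-WT and at 0.981 and 6.33 CPM in Angpt2-KO mice, which overlap (0.71 ± 0.572, edgeR adjusted p = 0.702). The genotype difference of F5 was not shown to differ between arterial-like and capillary-like ECs (-1.24 ± 0.643, edgeR adjusted p = 0.717) or between venous-like and capillary-like ECs (edgeR adjusted p = 0.986).

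F5 also differed among the clusters of capillary-like ECs. In cluster 2, led by Car4, Ndnf and F5 although F5 took no part in the clustering, it stood at 46.9 and 50.6 CPM in Angpt2-WT and at 244 and 262 CPM in Angpt2-KO mice. In cluster 0 it was at 18.1 and 23.9 against 96.4 and 99.8 CPM. In cluster 1 it was at 6.56 and 12.4 against 11.7 and 47.3 CPM, where the genotypes overlap. Within these clusters and without Apln-positive cells, the log2 fold changes of F5 were 2.26, 2.18 and 1.78 for clusters 2, 0 and 1, with edgeR adjusted p of 2.31e-08, 1.55e-08 and 0.014. Cluster 2 held 756 and 1214 cells of the Angpt2-WT and 304 and 484 of the Angpt2-KO mice. Its capillary name was a narrow one, with a mean marker score of 0.388 for capillary and 0.294 for venous genes. At resolution 0.6 a cluster of 2735 cells took the venous name, with 750 and 1203 Angpt2-WT and 300 and 482 Angpt2-KO cells. How many cells these 2 clusters share was not tested.

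A larger share of Angpt2-KO capillary-like cells held F5. With each cell thinned to 3000 UMIs, 5.3% and 7.27% of Angpt2-WT and 16.5% and 18.2% of Angpt2-KO capillary-like cells had an F5 UMI (9.9%, 10.2%, 21.8% and 17% without thinning). Cells with an F5 UMI averaged 1.26 and 1.35 of them after thinning in Angpt2-WT and 2.18 and 1.87 in Angpt2-KO mice. In microglia-like cells, which should lack F5, the thinned share was at most 3.07% in any mouse. The median depths in Angpt2-WT replicates 1 and 2 and Angpt2-KO replicates 1 and 2 were 4521, 4030, 6265 and 3497 UMIs in microglia-like and 4806, 3921, 5047 and 3185 UMIs in capillary-like cells. Thinning left out 412, 1146, 192 and 1141 shallower capillary-like cells.

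**Figure D2:**
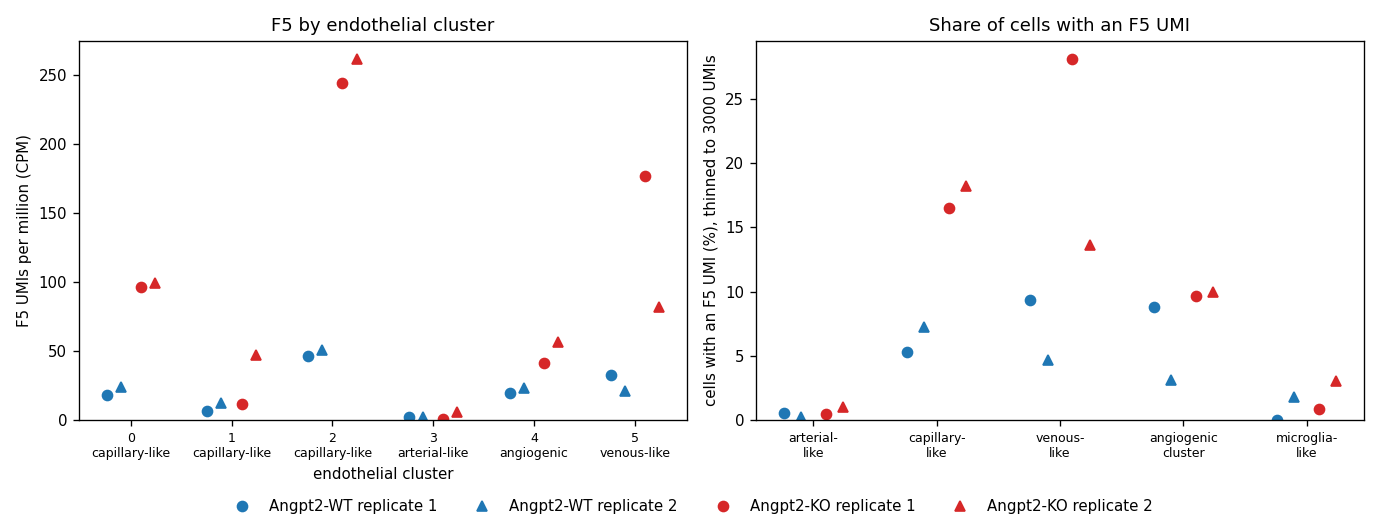
Left, F5 (CPM) in 6 endothelial clusters, 1 point per mouse; right, the share of cells (%) with an F5 UMI after each cell was thinned to 3000 UMIs (blue Angpt2-WT, red Angpt2-KO; circles replicate 1, triangles replicate 2). Both Angpt2-KO points of clusters 0 and 2 lie above both Angpt2-WT points, and arterial-like and microglia-like cells lie at or under 3.07%.

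For Vwf the genotypes lay in opposite order in arterial-like and capillary-like ECs, though neither difference was called. In capillary-like ECs it stood at 264 and 254 CPM in Angpt2-WT and at 195 and 194 CPM in Angpt2-KO mice, which do not overlap, but the log2 fold change of -0.44 ± 0.113 was not called (edgeR adjusted p = 0.06), while DESeq2 called it (adjusted p = 0.014), as did the fit with the replicate number as a block (-0.43, edgeR adjusted p = 0.0416) and the fits without Angpt2-WT replicate 1 (-0.37, edgeR adjusted p = 0.0366) or 2 (-0.49, edgeR adjusted p = 0.00691). The 12 venous marker genes, none at 0, were lower in sum in the same cells of both Angpt2-KO mice, at 1370 and 1510 against 1100 and 1070 CPM. Of single venous genes, Nr2f2 was lower in both (114 and 112 against 68.4 and 62.8 CPM). Slc38a5 (255 and 375 against 338 and 328 CPM) and Ackr1 (1.14 and 0.627 against 0.642 and 0.493 CPM) overlapped between the genotypes. The part of the venous marker genes in the result was not tested. Vwf was also lower in both Angpt2-KO mice in microglia-like cells (28.2 and 51.4 against 9.16 and 14.8 CPM). In erythrocyte-like cells it was 316 and 458 against 126.5 and 118 CPM. The 7 endothelial markers summed to 1800 and 2350 against 887 and 1420 CPM in the microglia-like cells. The part of RNA from other cells in the Vwf values was not tested. In arterial-like ECs Vwf stood at 188 and 163 CPM in Angpt2-WT and at 235.5 and 258 CPM in Angpt2-KO mice (0.46 ± 0.129, edgeR adjusted p = 0.129), which was called without cells over 3 times the median UMIs of their mouse (0.64, edgeR adjusted p = 0.00786). In venous-like ECs the log2 fold change was 0.10 ± 0.184 (edgeR adjusted p = 0.896). In arterial-like ECs 0 of 7 tested members were called with edgeR and 0 with DESeq2, and 0.954% of all genes tested were called. An unadjusted edgeR p under 0.05 was found for 1 member, beside 1191 of all 11009 genes tested.

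The difference of Vwf between these responses was itself called. The change in arterial-like ECs exceeded that in capillary-like ECs by 0.89 ± 0.106 (log2, edgeR adjusted p = 4.01e-06), and the change in venous-like ECs exceeded it by 0.52 ± 0.0979 (edgeR adjusted p = 0.00299). Vwf was the 1 of 8 tested members called in each of these comparisons, in which 0.678% and 0.504% of all genes tested were. Vwf by cluster in Angpt2-WT and then Angpt2-KO mice was 161 and 152 against 137 and 154 CPM in cluster 0. It was 76.6 and 95.5 against 45.0 and 77.9 CPM in cluster 1 and 364 and 329 against 298 and 349 CPM in cluster 2, so the genotypes overlapped within each cluster, and the part of the cluster shares in the result was not tested. Neither difference was called at resolution 0.6 (0.41, edgeR adjusted p = 0.567, and -0.28, edgeR adjusted p = 0.802), and the venous one was lost without Angpt2-WT replicate 2 (0.50, edgeR adjusted p = 0.0851) without cells over 3 times the median UMIs (0.37, edgeR adjusted p = 0.174) and with no gene left out of the clustering (0.46, edgeR adjusted p = 0.052).

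Over all ECs, 2 of 8 tested members were called, where 5.96% of all genes tested were. F5 was higher in Angpt2-KO mice, at 87.2 and 100.4 CPM against 25.4 and 28.7 CPM (1.78 ± 0.12, edgeR adjusted p = 8.49e-04). Vwf was lower, at 314 and 309 CPM against 425 and 524 CPM (-0.62 ± 0.141, edgeR adjusted p = 0.0411). The Vwf call was lost without Angpt2-KO replicate 1 (-0.63, edgeR adjusted p = 0.157), Angpt2-KO replicate 2 (-0.58, edgeR adjusted p = 0.204) or Angpt2-WT replicate 2 (-0.49, edgeR adjusted p = 0.119), and without cells over 3 times the median UMIs of their mouse it was -0.19 (edgeR adjusted p = 0.336). Venous-like ECs, where Vwf is highest, numbered 122 and 309 in Angpt2-WT and 34 and 87 in Angpt2-KO mice, and their part in the pooled value was not tested.

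The other members were not called between genotypes in arterial-like, capillary-like or venous-like ECs. Tfpi lay at 40.9 and 42.6 CPM in Angpt2-WT and at 53.6 and 48.0 CPM in Angpt2-KO capillary-like ECs (0.26 ± 0.113, edgeR adjusted p = 0.354). Thbd lay at 243 and 208 against 389 and 278 CPM in venous-like ECs (0.50 ± 0.198, edgeR adjusted p = 0.43). Procr, Plat and Anxa2 had log2 fold changes of 0.16 ± 0.158, -0.19 ± 0.113 and 0.31 ± 0.145 in capillary-like ECs. The median over the 8 members tested there was 0.23, beside -0.009 over all genes tested.

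**Figure D3:**
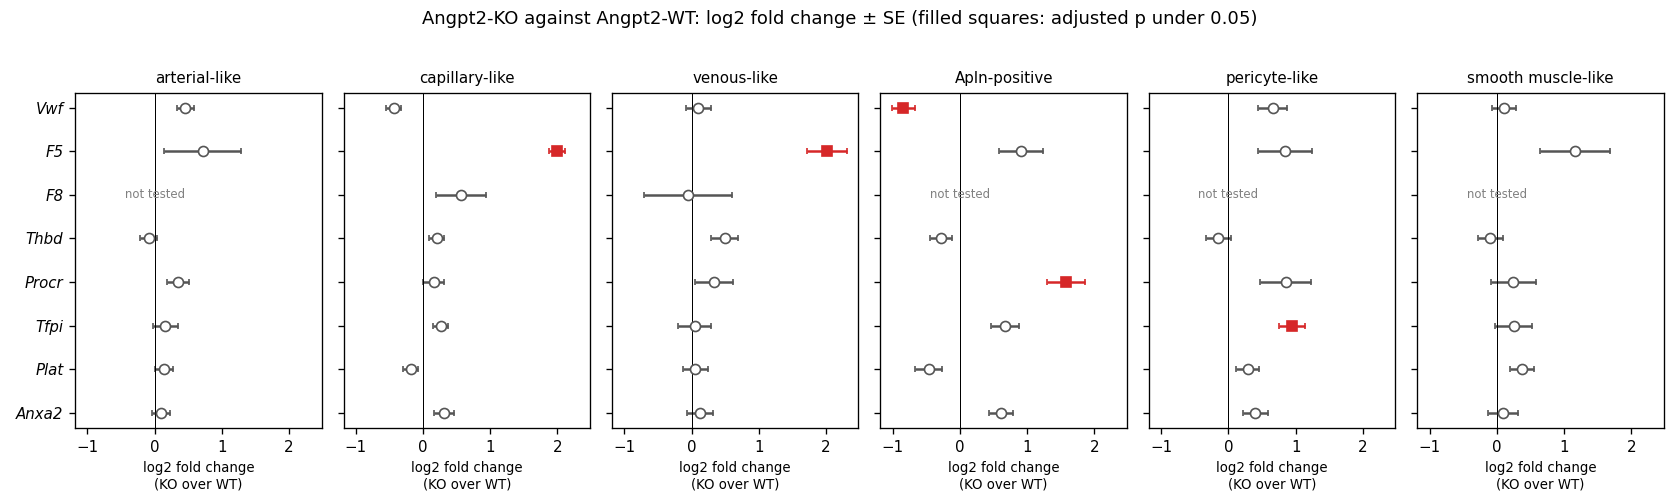
Log2 fold change of Angpt2-KO over Angpt2-WT with its standard error for 8 members in 6 cell groups; filled red squares are called (edgeR quasi-likelihood test, adjusted p under 0.05), open circles are not. F5 is called in capillary-like and venous-like ECs, Vwf and Procr in Apln-positive ECs and Tfpi in pericyte-like cells.

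In pericyte-like cells Tfpi was the 1 of 7 tested members called, where 5.34% of all genes tested were. It stood at 69.0 and 82.0 CPM in Angpt2-WT and at 168 and 130.5 CPM in Angpt2-KO mice, which do not overlap (0.95 ± 0.191, edgeR adjusted p = 0.0077). Endothelial RNA was present in these cells: the 7 endothelial markers, none at 0, summed to 6820 and 7560 CPM in Angpt2-WT and 7530 and 7590 CPM in Angpt2-KO mice, against 11600 to 12700 CPM in ECs. The 21 angiogenic endothelial genes were also higher in both Angpt2-KO mice, at 5850 and 5750 against 14500 and 11100 CPM in sum. Without the pericyte-like cells with an Apln or Esm1 UMI (1 and 3 in Angpt2-WT, 56 and 39 in Angpt2-KO mice), Tfpi was 0.96 (edgeR adjusted p = 0.0478), F5 was called too (1.75, edgeR adjusted p = 0.0473) and Vwf was -0.16 in place of 0.66 ± 0.218.

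The Tfpi call in pericyte-like cells was lost without Angpt2-KO replicate 1 (0.75, edgeR adjusted p = 0.136), without Angpt2-WT replicate 2 (1.05, edgeR adjusted p = 0.0739) and without cells over 3 times the median UMIs (1.39, edgeR adjusted p = 0.17). Pericyte-like cells of Angpt2-KO replicate 1 had a median of 12306.5 UMIs, against 3711.5 to 4957 in the other mice, and 6970 CPM of 6 erythrocyte genes against 77.8 to 904, and their part in the result was not tested. With the replicate number as a block, Vwf was called as well in these cells (0.66, edgeR adjusted p = 0.00868). In smooth muscle-like cells 0 of 7 tested members were called with edgeR and 0 with DESeq2, 1 had an unadjusted p under 0.05, and 0% of all genes tested were called (603 had an unadjusted p under 0.05). F5 lay there at 13.1 and 4.2 against 38.2 and 9.35 CPM, which overlap, and the 38.2 CPM of Angpt2-KO replicate 1 were 37 UMIs of 1 cell.

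Apln, the gene of the peptide apelin, marks sprouting endothelium. ECs with an Apln UMI numbered 38 and 64 in Angpt2-WT and 391 and 306 in Angpt2-KO mice. Within the Angpt2-KO mice, 7 of 8 tested members were called between Apln-positive and Apln-negative ECs, where 26.1% of all genes tested were. The comparison rests on 2 mice with the mouse as a term, and the spread of a gene is borrowed from other genes. Apln-positive ECs were deeper in both, with medians of 12625 and 5884 against 6959 and 3816.5 UMIs, and the part of depth was not tested. Of them, 76.7% and 60.1% lay in the angiogenic cluster described below, while Apln-negative ECs mix all vessel types.

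Of the anticoagulant genes, Procr rose from 19.3 CPM in the Apln-negative ECs of each Angpt2-KO mouse to 36.2 and 31.5 CPM in the Apln-positive ones (0.84 ± 0.116, edgeR adjusted p = 1.18e-11). Tfpi rose from 50.7 and 47.2 to 72.8 and 61.3 CPM (0.48 ± 0.0873, edgeR adjusted p = 6.46e-07). Thbd fell, from 171 and 185 to 122 and 153.5 CPM (-0.38 ± 0.0767, edgeR adjusted p = 7.5e-06). Procr and Thbd, partners in the activation of protein C, lay in opposite directions in both mice. Vwf rose from 244 and 283 to 460.5 and 481 CPM (0.85 ± 0.0755, edgeR adjusted p = 9.78e-28). Of the fibrinolysis genes, Anxa2 rose from 202 and 211 to 344 and 302 CPM (0.66 ± 0.0746, edgeR adjusted p = 3.15e-17), and Plat fell from 184 and 177 to 140.2 and 139.8 CPM (-0.36 ± 0.0766, edgeR adjusted p = 3.37e-05).

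ECs with 10 or more Apln UMIs (114 and 46 cells of the Angpt2-KO mice) were set against those with 1 to 9 (277 and 260 cells), and 6 of 7 tested members were called, where 23.7% of all genes tested were. Vwf was higher, at 611 and 636 against 340 and 427 CPM (0.78 ± 0.0863, edgeR adjusted p = 1.16e-05). Anxa2 was higher, at 451 and 423 against 259 and 260.2 CPM (0.81 ± 0.0855, edgeR adjusted p = 7.05e-06). Both mice showed the same order in both genes. Procr was higher (51.6 and 48.6 against 23.96 and 25.5 CPM, 1.10 ± 0.174, edgeR adjusted p = 2.96e-04), as was Tfpi (0.63 ± 0.13), and Thbd was lower (106 and 108 against 134 and 169 CPM, -0.39 ± 0.112, edgeR adjusted p = 0.0202). The calls of Procr, Tfpi and Thbd were lost with DESeq2 and without cells over 3 times the median UMIs. Cells of the higher grade were deeper, with medians of 23166.5 and 11786 against 10180 and 5413.5 UMIs, and the part of depth was not tested.

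F5 was highest in the middle grade. In Angpt2-KO mice it stood at 87.4 and 93.2 CPM in Apln-negative ECs, at 136 and 194 CPM in ECs with 1 to 9 Apln UMIs, and at 25.0 and 14.9 CPM in ECs with 10 or more. The highest grade lay below the middle one in both mice (-2.66 ± 0.183, edgeR adjusted p = 1.05e-07). Apln-positive ECs as a whole were called higher than Apln-negative ones in F5 (0.32 ± 0.0781, edgeR adjusted p = 4.51e-04), but they were lower where Apln-positive meant at least 3 UMIs (-1.02, edgeR adjusted p = 1.71e-19). The call was lost within capillary-like clusters, the angiogenic one included (0.06, edgeR adjusted p = 0.638), and with DESeq2 (0.34, adjusted p = 0.862).

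**Figure D4:**
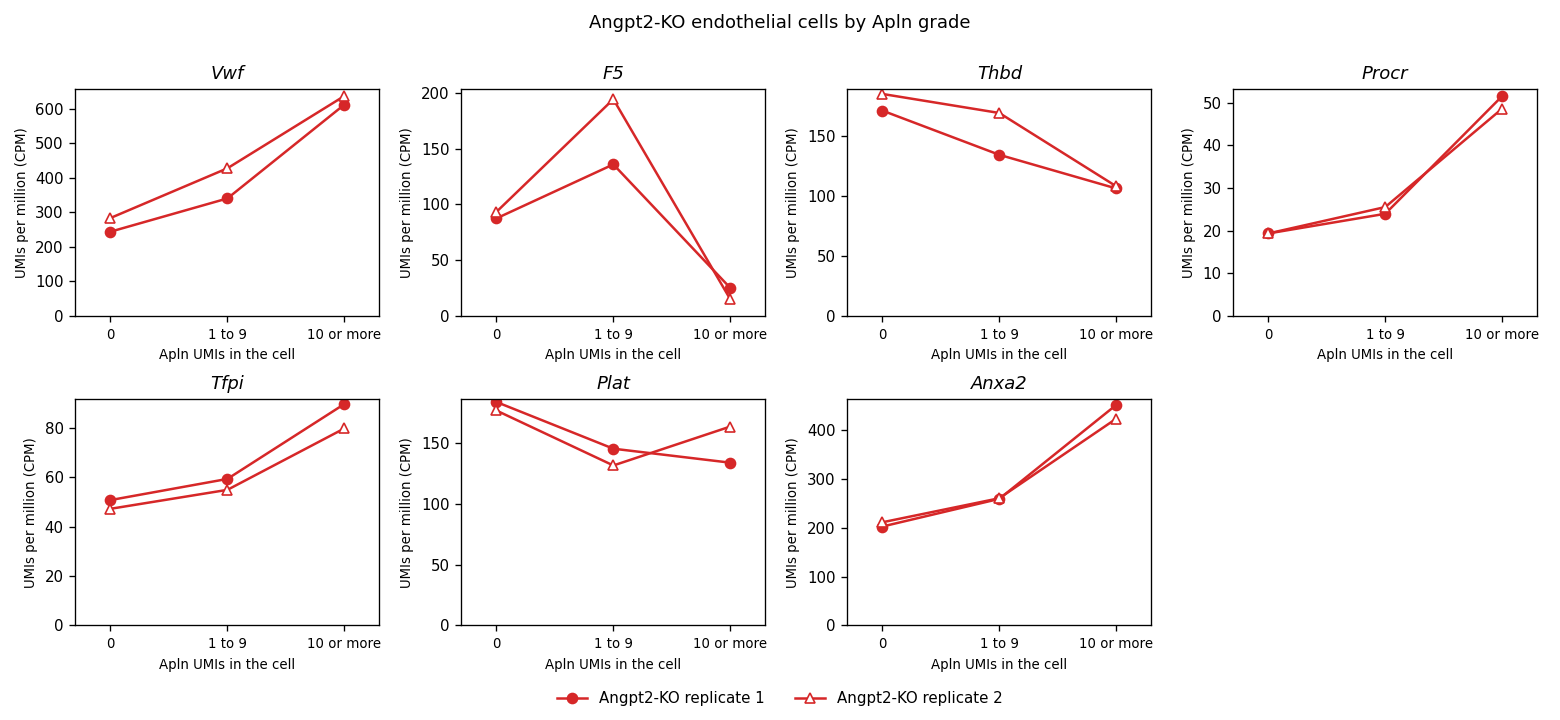
Level (CPM, linear axes from 0) of 7 members in Angpt2-KO ECs by the number of Apln UMIs in the cell, 1 line per mouse (filled circles replicate 1, open triangles replicate 2). Vwf, Procr, Tfpi and Anxa2 are highest at 10 or more Apln UMIs in both mice, and F5 goes from 136 and 194 CPM at 1 to 9 down to 25.0 and 14.9 CPM.

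The angiogenic cluster, a capillary-like cluster led by Apln, Esm1 and Meox1, held 34 and 32 cells of the Angpt2-WT and 850 and 880 of the Angpt2-KO mice. It held 112 of the 114 and all 46 Angpt2-KO cells of the highest Apln grade. Against the other, Apln-negative capillary-like ECs of the Angpt2-KO mice 7 of 8 tested members were called, where 26.1% of all genes tested were. F5 was lower, at 41.7 and 56.7 against 150 and 132 CPM (-1.54 ± 0.0813, edgeR adjusted p = 2.86e-76), but this was lost at resolution 0.6 (-0.23, edgeR adjusted p = 0.155). Thbd was lower, at 116 and 113 against 194 and 212 CPM (-0.83 ± 0.0764, edgeR adjusted p = 7.77e-25), and so was Plat (-0.41 ± 0.0757). Procr was higher, at 28.9 and 21.6 against 13.97 and 13.4 CPM (0.87 ± 0.133, edgeR adjusted p = 2.1e-09), and so were Anxa2 (0.38 ± 0.0758) and Tfpi (0.27 ± 0.0862). Vwf was called higher (0.21 ± 0.0759, edgeR adjusted p = 0.0263), but replicate 1 had 271 against 195 CPM and replicate 2 had 185 against 194 CPM, and the call was lost with DESeq2 (0.21, adjusted p = 0.942).

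Between genotypes, 2 of 7 tested members were called within Apln-positive ECs, where 9.88% of all genes tested were. Procr stood at 12 and 11.2 CPM in Angpt2-WT (7 and 13 UMIs) and at 36.2 and 31.5 CPM in Angpt2-KO mice (1.58 ± 0.285, edgeR adjusted p = 0.0035). Vwf stood at 751 and 931 CPM in Angpt2-WT and at 460.5 and 481 CPM in Angpt2-KO mice (-0.84 ± 0.172, edgeR adjusted p = 0.00765). Neither gene overlapped between the genotypes. The Procr call was lost without Angpt2-WT replicate 2 (1.49, edgeR adjusted p = 0.0603), the Vwf call without Angpt2-KO replicate 1 (-0.81, edgeR adjusted p = 0.0795), and both without cells over 3 times the median UMIs (1.12, edgeR adjusted p = 0.317, and -0.39, edgeR adjusted p = 0.302).

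The Apln-positive cells of the genotypes came from different clusters. The angiogenic cluster gave 23.7% and 14.1% of them in Angpt2-WT and 76.7% and 60.1% in Angpt2-KO mice, and the venous-like cluster 5.26% and 29.7% against 1.53% and 2.94%. Within the capillary-like clusters, the angiogenic one included, Vwf was -0.19 (edgeR adjusted p = 0.616) and Procr 1.63 (edgeR adjusted p = 0.00926). Tfpi, Plat and Anxa2 were called there too. These sets held 9 and 9 angiogenic cells beside 23 and 32 others in Angpt2-WT mice. In Angpt2-KO mice they held 300 and 184 beside 76 and 102, so the cluster shares of the genotypes still differed.

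Of 54 further genes of these pathways, 30 were tested over all ECs, and 3 were called higher and 1 lower in Angpt2-KO mice, beside 5.96% of all genes tested that were called. The thrombin receptor F2r stood at 3.07 and 2.33 CPM in Angpt2-WT and at 26.4 and 11.4 CPM in Angpt2-KO ECs (2.80 ± 0.377, edgeR adjusted p = 0.00565). Serpine2, an inhibitor of thrombin, was called higher (19.8 and 22.1 against 50.8 and 41.2 CPM), as was the receptor F2rl2 on 3 and 4 against 51 and 11 UMIs. Hs3st1, whose enzyme makes heparan sulfate that binds antithrombin, was called lower (96.4 and 165 against 48.3 and 68.6 CPM). Outside the Apln-positive cells and the angiogenic cluster F2r (0.75, edgeR adjusted p = 0.208), Serpine2 (0.48, edgeR adjusted p = 0.0881) and Hs3st1 (-0.70, edgeR adjusted p = 0.132) were not called. The Hs3st1 call over all ECs was lost with DESeq2 (-1.16, adjusted p = 0.0816). Without Angpt2-WT replicate 2 the calls of F2r (2.58, edgeR adjusted p = 0.068), Hs3st1 (-0.76, edgeR adjusted p = 0.125) and F2rl2 (edgeR adjusted p = 0.263) were lost, and that of F2rl2 also without Angpt2-WT replicate 1 (edgeR adjusted p = 0.174) or Angpt2-KO replicate 1 (edgeR adjusted p = 0.302). Plau, the urokinase gene, gave 1, 0, 3 and 1 UMIs in ECs and was not tested, and Pros1, the gene of protein S, lay at 90.4 to 103 CPM in the 4 mice.

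Within the Angpt2-KO mice, 7 of 26 tested genes of the wider list were called higher and 7 lower in Apln-positive than in Apln-negative ECs, where 26.1% of all genes tested were called. The 2 called genes of fibrinolysis, of 5 tested, were higher, namely the urokinase receptor Plaur (0.48 ± 0.134) and S100a10 (0.22 ± 0.0807), although S100a10 was lower in the angiogenic cluster (-0.57 ± 0.0818), a direction that turned round at resolution 0.6 (0.76, edgeR adjusted p = 4.48e-06). Of the 5 tested genes of platelet contact and inhibition, 4 were lower, among them Entpd1, whose enzyme degrades ADP (-1.05 ± 0.0853), and the endothelial nitric oxide synthase Nos3 (-0.28 ± 0.0756), and the prostacyclin synthase Ptgis was higher (0.53 ± 0.15). At 10 or more Apln UMIs, F2r stood at 124.5 and 120.3 against 18.3 and 16.6 CPM at 1 to 9, and Hs3st1 at 14.2 and 9.46 against 60.5 and 70.01 CPM. Anxa5, the gene of an anticoagulant annexin, was higher (0.72 ± 0.077), as were F2r (2.95 ± 0.123), F2rl2 (1 and 3 UMIs in Apln-negative against 50 and 8 in Apln-positive ECs) and Lman1, part of the transport receptor of factors V and VIII (0.20 ± 0.0751). Its partner Mcfd2 (-0.26 ± 0.0918), Gas6 (-0.545 ± 0.077) and Hs3st1 (-0.37 ± 0.092) were lower, besides Ptgs1 (-1.26 ± 0.483) and Mmrn2 (-0.29 ± 0.0758) of the platelet genes. With DESeq2 the calls of Plaur, S100a10, Nos3, Ptgis, Mcfd2, Hs3st1, Ptgs1 and Mmrn2 were lost (adjusted p = 0.108 to 0.756). Plaur was 0.06 without Angpt2-KO replicate 1 and 0.69 without Angpt2-KO replicate 2, values with no test. The median over the 26 genes was -0.06, beside -0.01 over all genes tested.

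Within Apln-positive ECs 3 of 19 tested genes of the wider list were called higher in Angpt2-KO than in Angpt2-WT mice and 3 lower, where 9.88% of all genes tested were called. Higher were F2r (5.14 and 0.858 against 65.5 and 43.45 CPM, the first from 3 and 1 UMIs), Serpine2 and Anxa5. Lower were Hs3st1 (158 and 241 against 39.95 and 54.3 CPM), Gas6 (221 and 243.5 against 124 and 147 CPM) and Entpd1. Angpt2-WT and Angpt2-KO mice did not overlap in the 3 genes with values here, which were taken from the called ones, so this is no separate support. The call of Gas6 was lost without Angpt2-KO replicate 1 (-0.67, edgeR adjusted p = 0.149), as was that of Entpd1 (-0.53, edgeR adjusted p = 0.298). Those of Serpine2 (0.53, edgeR adjusted p = 0.464) and Entpd1 (-0.84, edgeR adjusted p = 0.163) were lost without Angpt2-WT replicate 2, and both also with DESeq2 (adjusted p = 0.157 and 0.055).

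Along the vessel tree, 11 of 25 tested genes of the wider list were called higher and 3 lower in arterial-like than in capillary-like ECs, and 11 higher and 1 lower in venous-like ECs, where 27.1% and 30.8% of all genes tested were called. The thrombin receptor F2r and the related receptor F2rl1 were higher in both, F2r by 0.99 ± 0.259 and 2.145 ± 0.262 (log2) and F2rl1 by 4.76 ± 0.351 and 2.40 ± 0.661. The platelet inhibitor genes Entpd1 (1.37 ± 0.0776 and 0.83 ± 0.0885), Ptgis (0.77 ± 0.135 and 1.58 ± 0.137) and Ptgs1 (1.81 ± 0.38 and 5.10 ± 0.253) were higher in both. Hs3st1 was lower in arterial-like (-1.24 ± 0.0819) and higher in venous-like ECs (1.38 ± 0.0718). The arterial-like call of F2r was lost without Angpt2-WT replicate 1 (0.90, edgeR adjusted p = 0.0522) or 2 (0.79, edgeR adjusted p = 0.0508), and the venous-like call of F2rl1 without Angpt2-WT replicate 2 (1.68, edgeR adjusted p = 0.254). At resolution 0.6 the arterial-like calls of F2r (0.54, edgeR adjusted p = 0.137) and Hs3st1 (-0.14, edgeR adjusted p = 0.215) and the venous-like calls of F2r (0.16, edgeR adjusted p = 0.641) and Entpd1 (0.09, edgeR adjusted p = 0.355) were lost.

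Between genotypes, in arterial-like ECs 3 of 23 tested genes of the wider list were called, all higher in Angpt2-KO mice, where 0.954% of all genes tested were. Serpine2 stood at 11.48 and 10.9 against 30.9 and 32.3 CPM. Gas6, the gene of a vitamin K-dependent ligand of TAM receptors, stood at 166 and 173 against 292 and 257 CPM, and Entpd1 at 206 and 197 against 301 and 297 CPM. None of the 3 was called without Angpt2-WT replicate 2 (edgeR adjusted p = 0.0726, 0.186 and 0.436 for Serpine2, Gas6 and Entpd1) or with no gene left out of the clustering (0.0685, 0.064 and 0.165). Gas6 was not called without Angpt2-KO replicate 1 either (edgeR adjusted p = 0.113), and Entpd1 without any 1 of the 4 mice (edgeR adjusted p = 0.0516 to 0.436). In capillary-like ECs 1 of 23 was called, Hs3st1 (-0.61 ± 0.151, edgeR adjusted p = 0.0458), a share near the 2.6% of all genes tested. It was lost without Angpt2-WT replicate 2 (-0.29, edgeR adjusted p = 0.141), Angpt2-KO replicate 1 (-0.54, edgeR adjusted p = 0.099) or Angpt2-KO replicate 2 (-0.69, edgeR adjusted p = 0.0662). In venous-like and smooth muscle-like cells 0 of 19 and 0 of 22 were called with edgeR, beside 0.276% and 0% of all genes tested. An unadjusted edgeR p under 0.05 was found for 4 in each, beside 943 of 9778 and 603 of 10303 of all genes tested. In pericyte-like cells Serpine2 (86.6 and 72.01 against 236 and 186 CPM) and F2r (24.75 and 13 against 47.8 and 43.5 CPM) were called higher and Hs3st1 lower, of 21 tested, where 5.34% of all genes tested were called. Apln stood at 1.77 and 1 CPM in the Angpt2-WT and at 585 and 293 CPM in the Angpt2-KO sums of these cells, beside the higher sum of angiogenic genes given above. Without the cells with an Apln or Esm1 UMI, F2r was not called (0.95, edgeR adjusted p = 0.302), while Serpine2 (1.10, edgeR adjusted p = 0.00659) and Hs3st1 (-1.14, edgeR adjusted p = 0.0492) were. F2r was not called without Angpt2-WT replicate 2 (0.82, edgeR adjusted p = 0.344) or with DESeq2 (1.30, adjusted p = 0.136) either, and none of the 3 was without cells over 3 times the median UMIs (edgeR adjusted p = 0.39 to 0.703).

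**Figure D5:**
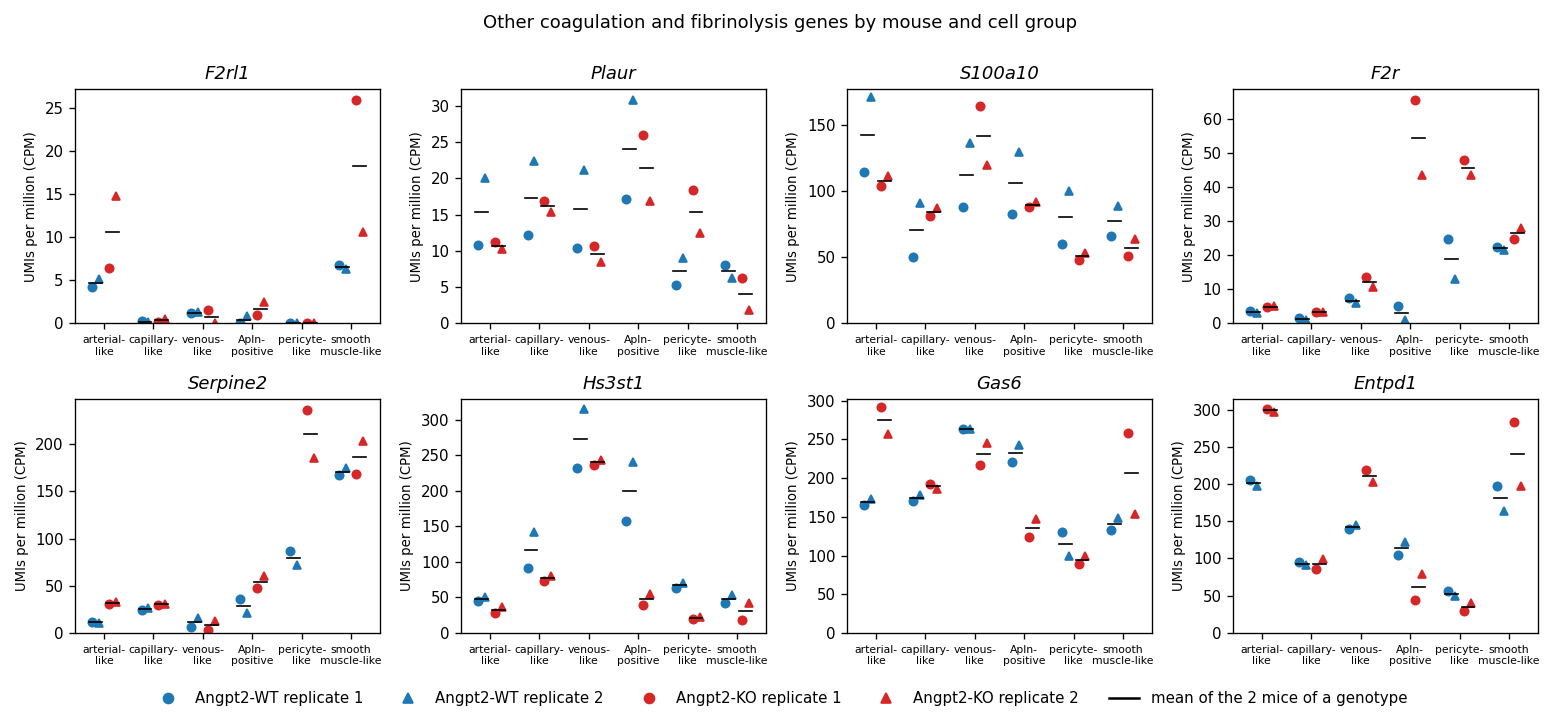
Level (CPM, linear axes from 0) of 8 genes of the wider list in 6 cell groups, 1 point per mouse (blue Angpt2-WT, red Angpt2-KO; circles replicate 1, triangles replicate 2) with a line at the mean of the 2 mice of a genotype. Serpine2, Gas6 and Entpd1 are higher in both Angpt2-KO than in both Angpt2-WT mice in arterial-like ECs, and F2r is higher in Angpt2-KO Apln-positive ECs.

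Across the 24 sums of 4 mice and 6 cell groups, the 3 genes of 10853 whose log2(CPM + 1) was most like that of each member were found. For F5 they were Bst1 (Pearson r = 0.91), Cysltr1 (0.871) and Rflnb (0.816). For Vwf they were Clint1 (0.951), Atp1b3 (0.946) and Clec14a (0.942), and for Thbd Nod1 (0.958), Ptgfrn (0.942) and Kif26a (0.938). The most alike was Cmip for Procr (0.851), Cdh2 for Tfpi (0.885), Fam161a for Plat (0.785), Rhoc for Anxa2 (0.856) and Tars2 for the sparse F8 (0.766). The sums of a mouse share its library, so the values describe these sums.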

How the data were processed

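Single-cell RNA was measured in 2 Angpt2-WT and 2 Angpt2-KO mice, 1 library per mouse. The deposited files hold UMI counts per gene and cell, which the authors made with Cell Ranger (6.1.2 in the submitters' processing notes, 6.1.1 in the file headers) on mm10. Cells with over 500 genes and under 10% mitochondrial UMIs were clustered with Seurat 5.3.0 in R 4.3.3 (2000 variable genes, 50 principal components, at resolution 0.2, and ECs again at 0.4). The members and the wider list were left out of the clustering. Comparisons between vessel types and of the angiogenic cluster were tested only on genes that took no part in the EC clustering. No doublet caller was run, and cells over 3 times the median UMIs of their mouse were left out in an alternative.

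Levels are CPM of the summed counts of a cell group. Sums per mouse were tested with the edgeR 4.0.16 quasi-likelihood test (TMM factors, Benjamini-Hochberg adjustment over all genes tested, threshold 0.05), and comparisons within mice had the mouse as a term. Alternatives were DESeq2 1.42.0, RLE factors, no filter on low counts, each mouse left out, the replicate block, and other cell sets and cluster resolutions. The test was tested on simulated data. The replicate numbers, which coincide with sex, gave a correlation of deviations of 0.091 over 13514 genes, under the 0.1 that would pair the mice. The main fits between genotypes had genotype as their only term, so they did not adjust for sex. The UMI totals bound the precision by counting error only: 3 UMIs were taken as the limit that a count of 0 allows. The members and lists were chosen with earlier results of these data known. Named genes were the members in every group and the called genes of the wider list, at most 12 per comparison, by the size of the log2 fold change, of which the text gives a choice made after their values were seen. F2r, Plau, Plaur, S100a10, Pros1 and Serpine2 were to be named in every comparison and are given where they were called or carry a value of note. A gene of the wider list is not reported here and is in none of its counts. The 3 genes most like each member were ranked over the sums of 6 cell groups in 4 mice.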

Additional observations from a re-analysis of the deposited data

Results flagged for a closer look

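The change of Vwf between genotypes differed between vessel types by a test of the difference itself (edgeR quasi-likelihood test). Its log2 fold change lay above the capillary-like one by 0.89 in arterial-like and by 0.52 in venous-like ECs. The fold changes were 0.46 in arterial-like, 0.10 in venous-like and -0.44 in capillary-like ECs, so they differed in sign, and none was called. These differences were called. Neither difference was called at resolution 0.6 (0.41, edgeR adjusted p = 0.567, and -0.28, edgeR adjusted p = 0.802), and the venous difference of Vwf was also lost without Angpt2-WT replicate 2, without cells over 3 times the median UMIs and with no gene left out of the clustering (edgeR adjusted p = 0.0851, 0.174 and 0.052). In the wider list the arterial-like change exceeded the capillary-like one for Serpine2 by 1.23 (edgeR adjusted p = 0.00356), for Gas6 by 0.55 (0.549, edgeR adjusted p = 0.00253) and for Entpd1 by 0.55 (0.551, edgeR adjusted p = 0.00471), and for S100a10 the difference was -0.71 (edgeR adjusted p = 0.00178). None of these 4 was called at resolution 0.6 (edgeR adjusted p = 0.219 to 0.605). Without Angpt2-WT replicate 1 those of Gas6 (0.0626), Entpd1 (0.075) and S100a10 (edgeR adjusted p = 0.0792) were lost, and without Angpt2-WT replicate 2 those of Gas6 (0.086) and Entpd1 (edgeR adjusted p = 0.092).

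Vwf was higher in both Angpt2-KO than in both Angpt2-WT mice in pericyte-like cells (log2 fold change 0.66) and in smooth muscle-like cells (0.11) and lower in both in capillary-like ECs. Plat was likewise higher in pericyte-like (0.29) and smooth muscle-like cells (0.37) and lower in capillary-like ECs. None of these genotype changes was called (edgeR adjusted p = 0.06 to 0.949), and the differences between cell types were not tested. Without the pericyte-like cells with an Apln or Esm1 UMI, Vwf was -0.16 and Plat 0.43 there. In smooth muscle-like cells the 7 endothelial markers were also higher in both Angpt2-KO mice (4370 and 4840 against 6570 and 5110 CPM in sum), and their part in the result was not tested.

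F3, which is in no comparison, had 27 UMIs in fenestrated-like endothelial cells of Angpt2-WT replicate 1, against 2 in Angpt2-WT replicate 2 and 0 and 6 in the Angpt2-KO mice.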

How the results depend on the processing

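F5 was called higher in Angpt2-KO capillary-like ECs in every alternative run (log2 fold change 1.56 to 2.26), over all ECs likewise (1.70 to 2.05), and in venous-like ECs in all but DESeq2 (1.22 to 2.57). Of the values of single called members under the alternatives, 373 kept direction and call, 51 lost the call and 5 reversed. The reversed values were F5 in Apln-positive against Apln-negative ECs with at least 3 Apln UMIs (-1.02), Vwf in the angiogenic cluster without Angpt2-KO replicate 1 (-0.083, and 0.486 without Angpt2-KO replicate 2, values with no test), and at resolution 0.6 Plat in arterial-like (-0.077) and F5 in venous-like against capillary-like ECs (1.63) and the venous against capillary difference of Vwf (-0.276). The cause was not tested.

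The number of members called moved as follows. Over all ECs it was 2, and 4 with no filter, 1 to 2 with a mouse left out, 1 without cells over 3 times the median UMIs and 1 in Apln-negative ECs outside the angiogenic cluster. In arterial-like ECs it was 0, and 1 without cells over 3 times the median. In capillary-like ECs it was 1, and 2 with DESeq2, with no filter, with the angiogenic cluster and in cluster 0 alone, and 1 to 3 with a mouse left out. In venous-like ECs it was 1, and 0 with DESeq2. In pericyte-like cells it was 1, and 2 with no filter and without Apln or Esm1 cells, 0 without cells over 3 times the median and 0 to 2 with a mouse left out. In smooth muscle-like cells it was 0, and 0 to 1 with a mouse left out. In Apln-positive ECs it was 2, and 5 with no filter, 0 without cells over 3 times the median and 4 in capillary-like clusters, the angiogenic one included. Between Apln grades it was 6, and 3 with DESeq2 and without cells over 3 times the median; for the angiogenic cluster 7, and 4 with DESeq2; for venous-like against capillary-like ECs 6, and 3 without cells over 3 times the median. For the arterial difference of the genotype change it was 1, and 2 without cells over 3 times the median, 0 at resolution 0.6 and 1 to 2 with a mouse left out. For the venous difference it was 1, and 0 without cells over 3 times the median, at resolution 0.6 and with no gene left out of the clustering, and 0 to 2 with a mouse left out.

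With the replicate block, 2 members were called in capillary-like ECs (Vwf and F5), 2 in pericyte-like cells (Vwf and Tfpi) and 4 in Apln-positive ECs (Vwf, F5, Procr and Anxa2), and no other genotype count changed. That block is also a block for sex. Without sex-linked genes the correlation of the pairs was -0.139. The crossed pairing, chosen after seeing the data as were the cell sets by Apln, Esm1 and single clusters, called 1 member in arterial-like, 2 in capillary-like and pericyte-like and 4 in Apln-positive cells. Counts over all genes also moved between settings (ranges below), and the member counts under each setting were not set against them.

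Counts over all genes moved by over 1.5 times in each comparison: all ECs 806 (194 to 1753), arterial-like 105 (4 to 358), capillary-like 321 (84 to 932), venous-like 27 (6 to 446), pericyte-like 521 (29 to 830), smooth muscle-like 0 (0 to 61), Apln-positive 3204 (1094 to 4117), Apln grades 2466 (850 to 2676), genotypes in Apln-positive ECs 996 (216 to 1368), angiogenic cluster 2786 (563 to 3382), arterial-like against capillary-like 2835 (1404 to 5171), venous-like against capillary-like 3220 (1371 to 5021), and the differences of the change 82 (16 to 131) and 61 (26 to 110). Depth limits F8 and F3 most.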
